A study of Mus musculus with 6 samples.

Results

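The cytosolic ribosomal protein genes encode the protein components of the ribosomes that translate nuclear messages in the cytoplasm. They were taken by symbol from the deposited gene expression table: Rpl or Rps followed by a number, with an optional a, x or y and an optional digit, or Rpl, a number and a final l, together with Rpsa, Rplp0, Rplp1 and Rplp2, and without pseudogene symbols. Of 18280 genes in the table, 80 met this rule, 49 of the large subunit and 31 of the small subunit. The values came from RNA sequencing of whole ovaries, in 3 samples from mice with the genotype Dennd1aTG (TG) and 3 from wild-type mice (WT). Both genotypes were treated with pregnant mare serum gonadotropin (PMSG), which drives follicle growth, and ovaries were collected 44 h later. The labels name neither the transgene's construct and promoter nor the strain, age, pooling or batch of the animals, and the series addresses low fertility and FSH insensitivity of the transgenic mice. P-values judge the difference between TG and WT against the spread among libraries within each group, for these 6 libraries only.

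Each ribosome holds its proteins in fixed proportion, and the large and small subunits are assembled separately around ribosomal RNA in the nucleolus. Messages of these proteins typically begin with a run of pyrimidines at the cap, the 5′ terminal oligopyrimidine (TOP) tract, through which mTORC1 and LARP1 control their translation. In the ovary, gonadotropins act on mTORC1 and S6 kinase in granulosa cells, and phosphorylation of the protein of Rps6 is a common readout of that signal. Such control acts on translation and protein state, and RNA sequencing measures only the amount of message.

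RefSeq start windows (GRCm38.p6) were at hand for 60 of the 80 genes. To show the TOP feature, the 13 tested genes that the naming rule picked for their role, level, p or fold change and that had a window are printed from 10 bases before to 20 after the first listed start, 5′ to 3′ on the gene's strand. Base 11 is the listed start, which need not be the exact cap site, and capitals mark the longest run of C and T in each window.
Rpl10: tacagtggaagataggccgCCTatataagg (chrX:74270806-74270835, plus strand)
Rpl23: gTCCggtcacgtggctgagtgggcggggcc (chr11:97782420-97782449, minus strand)
Rpl37a: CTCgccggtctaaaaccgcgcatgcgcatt (chr1:72711250-72711279, plus strand)
Rpl39: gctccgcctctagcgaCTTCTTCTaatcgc (chrX:37085203-37085232, minus strand)
Rpl41: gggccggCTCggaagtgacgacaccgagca (chr10:128549149-128549178, minus strand)
Rplp0: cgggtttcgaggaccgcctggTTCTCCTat (chr5:115559457-115559486, plus strand)
Rplp2: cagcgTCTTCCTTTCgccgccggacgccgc (chr7:141447641-141447670, plus strand)
Rps6: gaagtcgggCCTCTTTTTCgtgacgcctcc (chr4:86857348-86857377, minus strand)
Rps15a: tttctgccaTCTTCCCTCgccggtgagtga (chr7:118116128-118116157, minus strand)
Rps25: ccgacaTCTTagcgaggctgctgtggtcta (chr9:44407704-44407733, plus strand)
Rps26: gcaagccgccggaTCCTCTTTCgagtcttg (chr10:128626487-128626516, minus strand)
Rps27: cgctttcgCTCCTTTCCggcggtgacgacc (chr3:90213629-90213658, minus strand)
Rpsa: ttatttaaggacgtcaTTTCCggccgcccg (chr9:120127756-120127785, plus strand)
Of these 13 windows, 7 held a run of at least 7 pyrimidines and 6 a shorter one, down to 3 bases in Rpl10, Rpl23, Rpl37a and Rpl41. Over the 57 tested ribosomal protein genes with a window, 56.1% had a run of at least 7 within 25 bases of the start, against 27.2% of 11126 other tested genes. A C at the listed start followed by 4 pyrimidines occurred in 21.1% of the ribosomal protein genes and in 2.14% of the others. In the 300 bases around the start, on either strand, the ETS letters CCGGAAG were present in 40.4%, against 16.8% of the others. GGGCGG occurred in 59.6% and 62.8%, AAGATGGC in 7.02% and 4.35%, and TATAAA in 8.77% and 7.22%. The run length and distance were set after windows had been seen, and these shares describe letters, not factor binding.

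The labels were checked on Dennd1a itself. It had 570, 582 and 588 CPM (normalised counts on the effective library size) in TG ovaries, against 44.6, 39.5 and 49.3 CPM in WT ovaries. Its log2 fold change, TG over WT, was 3.70 (SE 0.10, adjusted p = 4.025e-07, edgeR quasi-likelihood test). Libraries held between 17075484 and 18516171 estimated counts. Of 14124 genes tested, 149 were called at an adjusted p under 0.05, 5 higher and 144 lower in TG. Markers of granulosa, theca and oocyte were present in every library. The 16 interferon response genes tested were all lower in TG, with a median log2 fold change of -3.1. Macrophage markers summed to 239.6 to 252.9 CPM in TG and 284.2 to 476.2 CPM in WT, with 0 of 8 called and 7 of 8 at an unadjusted p under 0.05, all lower. Erythrocyte markers summed to 193.9 to 215.8 CPM in TG and 119.0 to 134.2 CPM in WT, with 3 of 5 called, all higher. The part of these cells in the ribosomal protein values was not tested, and in bulk tissue fewer cells of a type and less RNA per cell cannot be told apart.

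Of the 80 genes, 77 passed the filter on low counts, and 76 of these had at least 100 CPM, as did 2278 of the 14124 genes tested. For the 77 genes, the mean deposited FPKM over the 6 libraries ran from 44.8 to 3402, with a median of 1134 and quartiles of 765.8 and 1568. The highest were Rps26, Rpl23a, Rps27, Rpl10 and Rpl41. Rps26 encodes a small-subunit protein at the site where messages leave the ribosome. It had 2968, 3409 and 3334 FPKM in TG ovaries, against 2947, 2980 and 4771 FPKM in WT ovaries. WT replicate 3 stood above the other 5 libraries, and the groups overlapped. Rpl23a, whose protein lies at the exit tunnel, had 3211, 3741 and 3223 FPKM in TG, against 3043, 3185 and 3312 FPKM in WT. Rps27, Rpl10 and Rpl41 averaged 2825, 2239 and 2166 FPKM over the 6 libraries.

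The order of levels depended on the length by which counts were divided. Dividing the normalised counts by the length of the coding sequence instead gave 73.4 to 4385 CPM per kilobase, with quartiles of 895.8 and 1566. The Spearman correlation with FPKM was 0.75 over the 77 genes, which share the same counts on both scales. Rpl41, whose coding sequence of 138 bases is the shortest of the tested genes, moved to the top at 4385 CPM per kilobase. The lengths implied by FPKM and counts were shorter than the coding sequence for Rps26 (278 and 345 bases) and Rpl23a (390 and 468). Rps27 (179 and 252) and Rpl10 (625 and 642) also had shorter ones, while Rpl41 had a longer one (279 and 138). Rps15a ranked 76th by FPKM at 69.9 and 60th per kilobase of coding sequence. Its FPKM and counts imply a length of 4966 bases, against 390 coding bases and 5179 bases in its longest GENCODE transcript. Implied lengths were also far above coding lengths for Rps20 (3276 implied and 357 coding bases) and Rpl22 (2011 and 384). Their longest transcripts had 3706 and 2051 bases. Rps20 ranked 75th by FPKM and 70th per kilobase, and Rpl22 74th and 64th. Both genes were picked out after their values had been seen. Rps20 had 84.6, 90.7 and 89.0 FPKM in TG, against 75.01, 85.4 and 87.3 FPKM in WT, and Rpl22 averaged 169.3 ± 7.4 FPKM in TG and 159.7 ± 9.0 FPKM in WT (SD, n = 3 each). In CPM, with no division by length, Rps15a averaged 347, Rps20 279.7 and Rpl22 331, beside a median of 575 over the 77 genes.

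**Figure D1:**
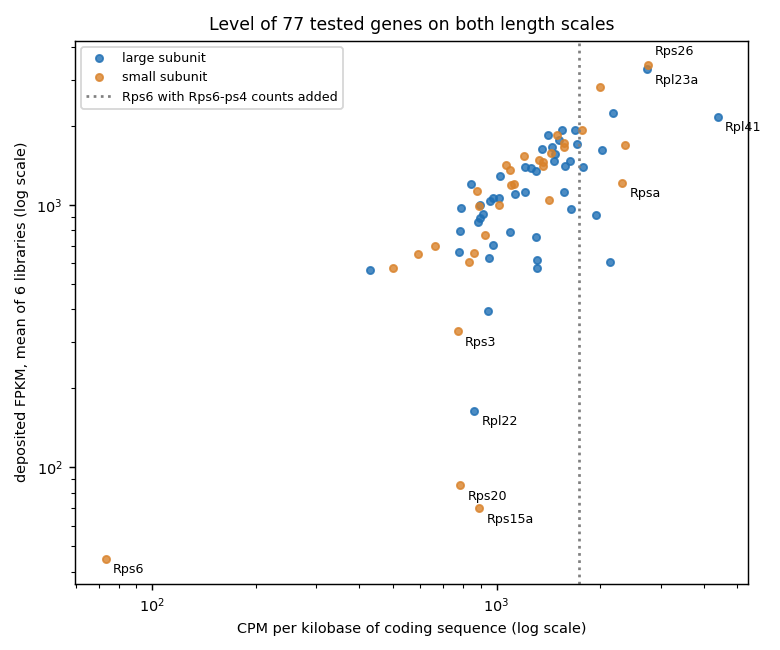
Mean deposited FPKM over 6 libraries (vertical, log scale) against CPM per kilobase of coding sequence (horizontal, log scale) for the 77 tested ribosomal protein genes, coloured by subunit. Rps15a, Rps20 and Rpl22 lie far below the other genes on the vertical scale only, Rps6 lies at the bottom of both scales, and the dotted line marks Rps6 at 1738 CPM per kilobase once the counts of Rps6-ps4 are added.

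Rps6 was the lowest of the tested genes on both scales. It encodes the substrate of S6 kinase and lies at chr4:86854099-86857367. It had 49.1, 44.6 and 48.3 FPKM in TG ovaries, against 44.3, 43.3 and 38.9 FPKM in WT ovaries. Another row of the table, identified by its Entrez number 105244208 as Rps6-ps4, a transcribed pseudogene at chr2:75190995-75191854, held 21425 to 22498 estimated counts in TG libraries and 21664 to 22695 in WT libraries. Estimated counts of both rows were fractional in every library. Rps6 held between 3.47% and 4.68% of the summed counts of the pair. The sum was 1265, 1348 and 1309 CPM in TG, against 1249, 1239 and 1381 CPM in WT. On that sum Rps6 would rank 13th of 77 per kilobase of coding sequence, at 1738 CPM per kilobase, and not last. The level of Rps6 is uncertain for this reason, and the pair was noticed after the values had been seen.

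Of 6 other genes paired with a near-identical copy in the table, only Rpl37 shared a sizeable part of its counts. Rpl37 held 76.2% to 87.5% of the sum with Rpl37rt, and Rpl31 and Rpl34 held 96.1% or more of their sums with Rpl31-ps12 and Rpl34-ps1. Rps27, Rps23 and Rpl29 held 99.9% or more. Over all 80 genes, estimated counts were whole in every library for 62, not whole in every library for 10, and not whole in some for 8. Rpl5, Rpl23, Rpl37a, Rplp2 and Rps16 had fractional counts in every library but were not paired with a copy. How far their counts are shared with other rows was not examined.

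The 3 genes below the filter were paralogues known for expression in restricted tissues. Rpl3l, the paralogue of Rpl3 known from striated muscle, had 0, 0 and 1 counts in TG libraries, against 0, 0 and 2 counts in WT libraries. Rpl10l, the paralogue of the X-linked Rpl10 known from the testis, had 1, 0 and 1 counts in TG, against 0, 3 and 4 in WT. Rpl39l, a paralogue of the X-linked Rpl39 also known from the testis, had 7, 2 and 8 counts in TG, against 0, 4 and 5 in WT. A count of 0 allows up to 0.162 to 0.176 CPM per library, for counting error only. Their ubiquitous partners had 926.3 FPKM (Rpl3), 2239 FPKM (Rpl10) and 752.8 FPKM (Rpl39) on average. Rpl3 varied least of all tested genes of the class between libraries, with a coefficient of variation of 2.65%.

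No ribosomal protein gene was called between TG and WT ovaries. The background was 1.05% of all genes tested called, 0.0354% higher and 1.02% lower, a share so small that 0 of 77 is near it. DESeq2 and limma-voom also called 0. By edgeR, 0 of 77 had an unadjusted p under 0.05, against 4.08% of all genes tested, and DESeq2 and limma-voom gave 0 as well. With single libraries left out, edgeR gave 0 to 2 such genes. Log2 fold changes ran from -0.35 to 0.16 with a median of 0.03, beside 0.0019 over all genes tested. They were above 0 for 54 genes and below 0 for 23, or 70.1% above 0, beside 50.7% of all genes tested. The normalisation centres most genes, so the median and the share over all genes tested were largely fixed in advance. The count of 54 genes above 0 depended on single libraries. It was 65 without TG replicate 1 and 68 without WT replicate 3, but 31 without TG replicate 2 and 33 without WT replicate 1, where the median fell below 0 (-0.03 and -0.01).

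A test that calls nothing does not show equal levels, so the 95% intervals were read. They reached from -0.78 to 0.42 on the log2 scale, and 76 of 77 lay within a 1.5-fold change in either direction, against 74.5% of all genes tested. Rpl36, which encodes a large-subunit protein, was the exception, with an interval of -0.78 to 0.09. Within 1.2-fold lay 31 genes (40.3%, against 21.9% of all genes tested and 45.6% of the 2278 tested genes with at least 100 CPM). The median standard error was 0.097 for the class, 0.122 for all genes tested and 0.091 for those with at least 100 CPM. For the 1.5-fold limit, no share was taken over the genes with at least 100 CPM alone. The fold limits were set after values had been seen.

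**Figure D2:**
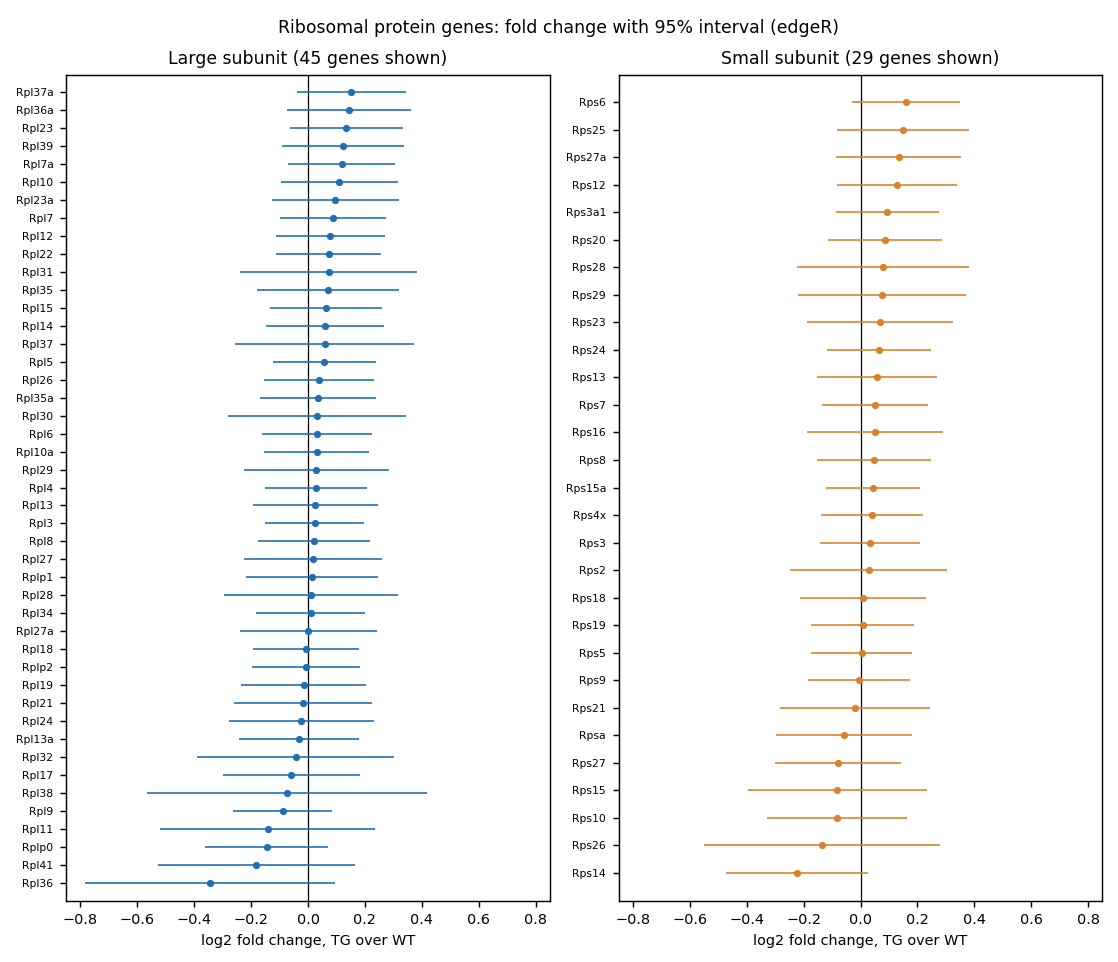
Log2 fold change, TG over WT, with its 95% interval from edgeR for 45 large-subunit and 29 small-subunit genes, ordered by fold change. Points lie between -0.35 (Rpl36) and 0.16 (Rps6), and every interval crosses 0.

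Among large-subunit genes, 31 of 46 log2 fold changes were above 0, with a median of 0.03. Rpl37a, which encodes a zinc-binding protein of the large subunit, had the highest. It had 252, 289 and 289 CPM in TG, against 238, 253 and 256 CPM in WT (log2 fold change 0.15, SE 0.08, 95% interval -0.04 to 0.34, adjusted p = 0.9997). TG replicates 2 and 3 lay above every WT library, and TG replicate 1 lay within the WT range. Rpl23, one of the proteins that bind MDM2 when ribosome assembly is disturbed, had 549, 599 and 579 CPM in TG, against 477, 542 and 556 CPM in WT (log2 fold change 0.13, SE 0.09). The 3 TG libraries all exceeded WT replicates 1 and 2, and TG replicate 1 lay below WT replicate 3. Rpl36 had 113, 97.5 and 146 CPM in TG, against 129, 126 and 198 CPM in WT, the largest negative log2 fold change at -0.35 (SE 0.19). It also had the largest coefficient of variation, 25.9% over 6 libraries, and its log2 fold change was 0.02 on the 4 libraries other than TG replicate 2 and WT replicate 3. Rpl41 had 509, 601 and 591 CPM in TG, against 509, 619 and 802 CPM in WT (log2 fold change -0.18, SE 0.15). WT replicate 3 stood apart, and without it the value was 0.01.

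The stalk proteins, which recruit translation factors to the large subunit, did not share a direction. Rplp0, the base of the stalk, had 1717, 1890 and 1894 CPM in TG, against 1825, 2184 and 2073 CPM in WT (log2 fold change -0.14, SE 0.10, 95% interval -0.36 to 0.07). TG replicate 1 was the lowest of the 6 libraries, and the other TG libraries lay between WT replicates 1 and 3. Rplp1 had 533, 626 and 580 CPM in TG, against 506, 609 and 607 CPM in WT (log2 fold change 0.01, SE 0.10). Rplp2 had 279, 250 and 284 CPM in TG, against 259, 287 and 273 CPM in WT (log2 fold change -0.01, SE 0.08). The groups overlapped for all of them, and the sign of Rplp1 and Rplp2 changed under other settings. The 4 X-linked genes, Rps4x, Rpl10, Rpl36a and Rpl39, had log2 fold changes of 0.04 to 0.15, none called. Rpl10, a late-joining protein of the large subunit, had 1366, 1483 and 1510 CPM in TG, against 1254, 1326 and 1458 CPM in WT (0.11, SE 0.09). Rpl39 had 194, 237 and 192 CPM in TG, against 192, 187 and 193 CPM in WT (0.12, SE 0.10), with TG replicate 2 above the other 5.

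Among small-subunit genes, 23 of 31 log2 fold changes were above 0, with a median of 0.05. Groups did not overlap for 2 of all 77 genes, beside 8.25% of all genes tested. These were Rps6, higher where 3.21% of all genes were, and Rps14, lower where 5.04% were. Rps14, whose protein lies at the platform of the small subunit, had 589, 697 and 677 CPM in TG, against 699.9, 718 and 875 CPM in WT. The highest TG library was just below the lowest WT library, and WT replicate 3 stood above the rest. The log2 fold change was -0.22 (SE 0.11, 95% interval -0.47 to 0.03), with the smallest unadjusted p of the class, 0.073, and an adjusted p of 0.9997. Rps6 had 59.2, 55.4 and 59.0 CPM in TG, against 53.8, 53.5 and 47.9 CPM in WT (log2 fold change 0.16, SE 0.08, 95% interval -0.03 to 0.35). For the sum of Rps6 and Rps6-ps4 the groups overlapped, and the log2 fold change was 0.02 (SE 0.08, 95% interval -0.17 to 0.21).

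Rps25, which contacts internal ribosome entry sites, had 302, 373 and 307 CPM in TG, against 277, 292 and 317 CPM in WT (log2 fold change 0.15, SE 0.10). Rps27a, which encodes ubiquitin fused to a ribosomal protein, had 426, 502 and 428 CPM in TG, against 413, 442 and 381 CPM in WT (0.13, SE 0.10). TG replicate 2 was the highest library in both. Rpsa, also known as the laminin receptor, had 1871, 2143 and 2018 CPM in TG, against 1890, 2023 and 2366 CPM in WT (-0.06, SE 0.11). Rps27 had 470, 509 and 494 CPM in TG, against 500, 469 and 587 CPM in WT (-0.08, SE 0.10), and Rps26 gave -0.13 (SE 0.18). WT replicate 3 was the highest library in these last 3 genes, and without it the log2 fold changes were 0.04 (Rpsa), 0.02 (Rps27) and 0.15 (Rps26). Rps15a, at 341, 358 and 359 CPM in TG and 335, 343 and 348 CPM in WT, gave 0.04 (SE 0.07).

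**Figure D3:**
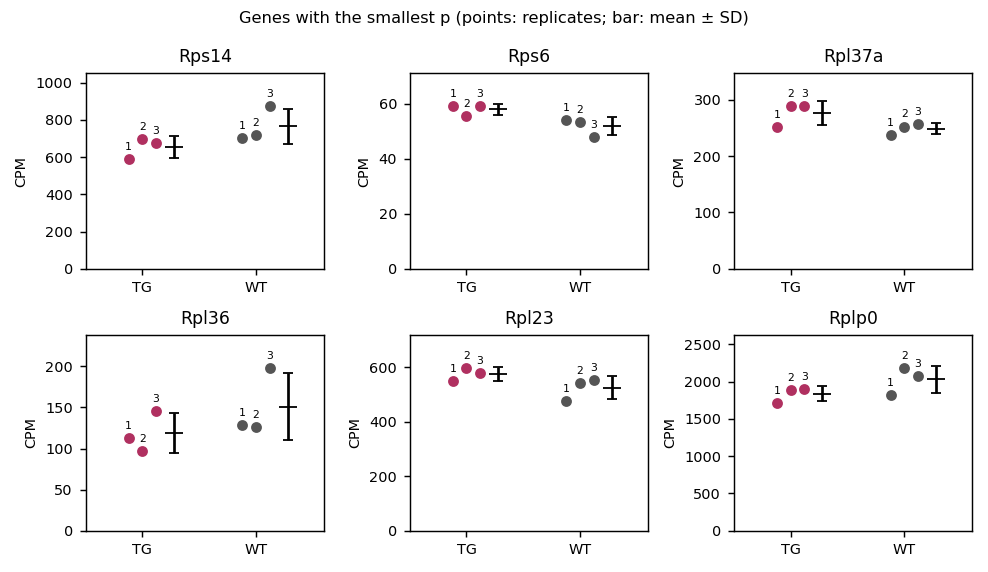
CPM by library for the 6 ribosomal protein genes with the smallest unadjusted p, TG left of WT, with replicate numbers above the points and the mean ± SD beside them. Points do not overlap between groups for Rps14 and Rps6 and overlap for the other 4 genes.

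Together the 80 genes held 4.99%, 5.56% and 5.26% of the counts in TG libraries, against 4.90%, 5.10% and 5.60% in WT libraries. Each share has a 95% Wilson interval of about ±0.01 percentage points for counting error alone (for TG replicate 1, 4.981% to 5.001%). The mean was 5.27% ± 0.282 in TG and 5.20% ± 0.363 in WT (SD, n = 3 each), a difference of 0.0721 percentage points (exact two-sided permutation test over 20 arrangements, p = 0.8, smallest possible 0.1). Large-subunit genes held 3.32% ± 0.176 in TG and 3.28% ± 0.225 in WT, and small-subunit genes 1.95% ± 0.107 in TG and 1.92% ± 0.138 in WT. The ratio of large to small subunit counts was 1.71, 1.70 and 1.70 in TG and 1.71, 1.70 and 1.70 in WT (exact permutation p = 0.6). The counts assigned to Rps6-ps4 are left out of these sums, so the levels of the small-subunit share and of the ratio depend on that assignment. No ratio was taken with them added. In summed FPKM the class held 16.1%, 17.2% and 16.7% in TG, against 15.9%, 16.0% and 17.6% in WT. Of the 10 values compared in this way, the share of the initiation, elongation and other TOP genes gave the smallest exact permutation p. It was 2.47%, 2.43% and 2.44% in TG, against 2.36%, 2.43% and 2.38% in WT (exact permutation test, p = 0.1, the smallest possible, adjusted p = 0.9 over the 10). On effective library sizes the groups overlapped. The sums of these genes were 24350, 24570 and 24260 CPM in TG, against 23550, 24490 and 23930 CPM in WT.

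**Figure D4:**
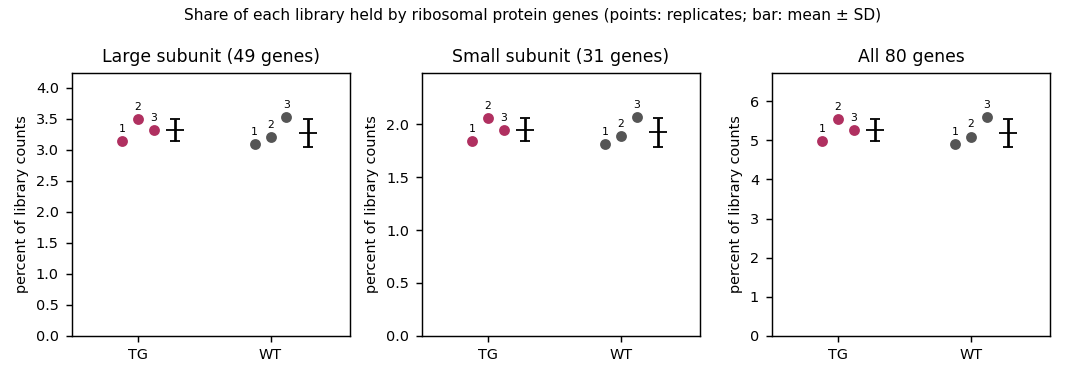
Percent of each library's estimated counts held by large-subunit, small-subunit and all ribosomal protein genes, TG left of WT, with replicate numbers above the points and the mean ± SD beside them. In each panel TG replicate 2 and WT replicate 3 are the highest and WT replicate 1 the lowest, and the groups overlap.

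The genes deviated together by library, in both genotypes. TG replicate 2 was the highest library for 42 of the 77 genes and WT replicate 3 for 24, and WT replicate 1 was the lowest for 37 and TG replicate 1 for 21. The median deviation from each gene's own mean was -0.08, 0.11 and 0.01 log2 units in TG replicates 1 to 3, against -0.10, -0.03 and 0.07 in WT replicates 1 to 3. Over 2202 other genes with at least 100 CPM it stayed between -0.02 and 0.02. The normalisation centres most genes of each library, so a value near 0 was largely fixed in advance for these others. Some related lists shared part of the order above. Mitochondrial ribosomal protein genes summed to 3346, 3932 and 3510 CPM in TG, against 3374, 3769 and 3607 CPM in WT. Cytosolic ribosomal genes outside the symbol rule summed to 2291, 2471 and 2421 CPM in TG, against 2290, 2437 and 2584 CPM in WT. Ribosome biogenesis factors peaked in TG replicate 2 (2805 CPM), but promoter-binding factors in TG replicate 1 (456.5 CPM). Whether the order is particular to the class was not tested. TG replicate 2 also had the highest sum of adipocyte markers, 191.4 CPM against 15.5 to 36.9 CPM in the other libraries. WT replicate 3 had the highest sum of oviduct epithelium markers, 48.1 CPM against 8.39 to 16.7 CPM. The part of such tissue in the ribosomal protein values was not tested. With both libraries left out, 50 of 77 log2 fold changes were above 0 and their median was 0.03.

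The deviations were also set against the GC content of the coding sequence. Their Spearman correlation over the 77 genes was -0.45, -0.25 and 0.25 in TG replicates 1 to 3, against -0.29, 0.20 and 0.42 in WT replicates 1 to 3. Over 2193 other genes with at least 100 CPM it was -0.29, -0.13 and 0.18 in TG, against -0.31, -0.056 and 0.56 in WT. For GC the sign differed between the highest libraries, TG replicate 2 and WT replicate 3. With the length of the coding sequence, the correlation over the 77 genes was 0.25, -0.21 and -0.17 in TG replicates 1 to 3. In WT replicates 1 to 3 it was 0.39, 0.32 and -0.38. Over the 2193 others it was 0.25, -0.18 and -0.028 in TG, against 0.17, -0.2 and 0.021 in WT. The part of coding length in the deviations was not tested. The log2 fold change itself correlated with coding GC at -0.43 over the 77 genes and -0.29 over the others. With single libraries left out it ran from -0.56 (without WT replicate 1) to -0.16 (without WT replicate 3) over the 77 genes. Over the others it ran from -0.41 to 0.07 without the same libraries, and was -0.14 without TG replicate 1. Genes within a library share its depth and composition, so these are descriptions across genes. In the 26 genes of lowest GC (44.9% to 50.6%) the median log2 fold change was 0.07 and 22 were above 0. In the 25 of middle GC (50.8% to 54.6%) it was 0.03 with 20 above 0, and in the 26 of highest GC (54.7% to 61.6%) -0.01 with 12 above 0. In the highest-GC genes WT replicate 3 deviated by a median of 0.19 log2 units, against 0.02 in the lowest. GC did not order every gene. Rpl38, chosen after its values were seen, had 143, 181 and 195 CPM in TG, against 141, 147 and 258 CPM in WT, and WT replicate 3 stood above the rest although the coding GC of Rpl38 is 49.5%. The part of library composition in the fold changes was not tested.

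**Figure D5:**
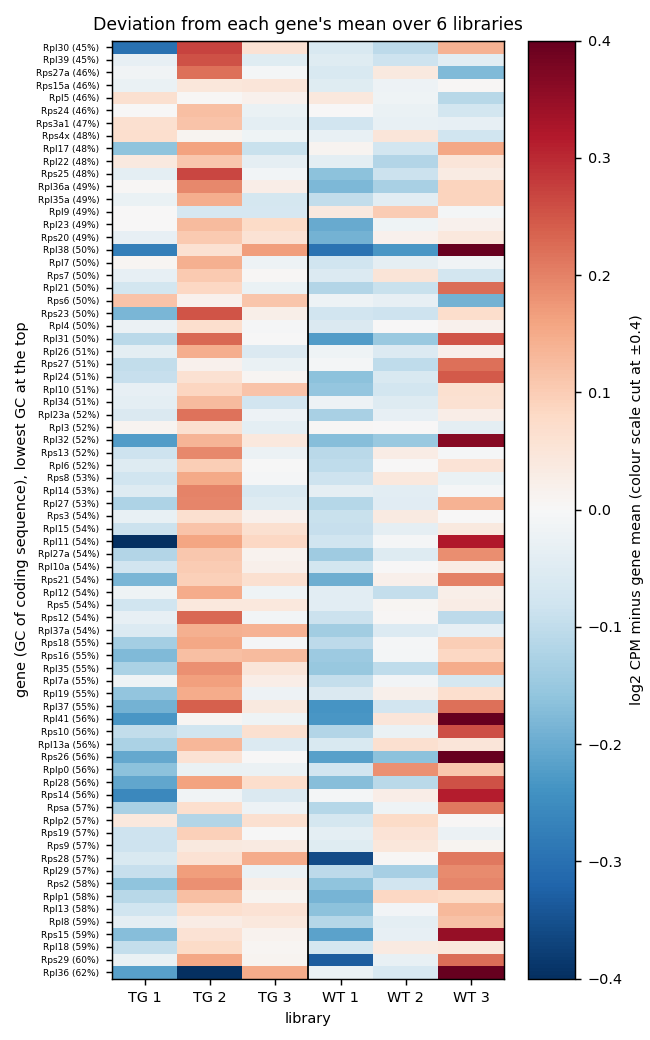
Deviation of each of 74 tested genes from its own mean over 6 libraries, in log2 CPM (colour, cut at ±0.4), with libraries as columns, TG left of WT, and genes as rows from lowest to highest GC of the coding sequence. TG replicate 2 is above the mean for 68 of them and WT replicate 3 for 56, and the strongest values in WT replicate 3 lie mostly in the lower rows.

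Genes that make, control or use ribosomes were not called either. With 1.05% of all genes tested called, 0 calls is near the background for each list given here and below. Of 7 tested cytosolic ribosomal genes that the symbol rule leaves out, 0 were called. Rpl22l1, the paralogue of Rpl22, had 47.8, 62.1 and 49.4 CPM in TG, against 41.3, 47.3 and 40.6 CPM in WT (log2 fold change 0.30, SE 0.12, adjusted p = 0.98). Its groups did not overlap, with TG replicate 2 well above the rest. Rps27l, the paralogue of Rps27, gave 0.15 (SE 0.12). The others, among them Fau, which encodes a ribosomal protein fused to a relative of ubiquitin, and Rack1, both picked after their values were seen, lay between -0.07 and 0.08. Of 23 initiation, elongation and other TOP genes, 16 were above 0 with a median of 0.04 and 0 called. Npm1, a nucleolar chaperone of ribosome assembly, had 653, 718 and 589 CPM in TG, against 597, 560.2 and 564 CPM in WT (log2 fold change 0.19, SE 0.09). Vim, an intermediate filament gene, had 891, 949 and 925 CPM in TG, against 827, 782 and 864 CPM in WT (0.16, SE 0.08), without overlap.

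Of 37 ribosome biogenesis factors 0 were called, with a median of 0.04. Mrto4, needed to build the stalk, gave 0.22 (SE 0.11), and Eif6, which keeps the subunits apart, gave -0.17 (SE 0.09). None of 12 genes of RNA polymerase I and its factors, which make ribosomal RNA, was called (median 0.03), and the genes with the smallest p, Taf1d and Polr1d, had log2 fold changes of 0.16 and 0.06. Of 25 genes of mTORC1, S6 kinase and MYC control 0 were called, with a median of -0.02. Mycl gave 0.20 (SE 0.11) and Rptor, the raptor subunit of mTORC1, -0.12 (SE 0.08). Of 16 genes listed for p53 and its response to ribosome stress, Trp53 itself among them, 0 were called (median 0.03). Log2 fold changes were 0.15 for Mdm4 and 0.14 for Trp53inp1. Of 6 promoter-binding factors 0 were called (log2 fold changes of 0.08 for Yy1 and 0.06 for Sp3). The 78 mitochondrial ribosomal protein genes had a median of 0.0012 with 0 called, and the genes with the smallest p, Mrps33 and Mrps36, had log2 fold changes of 0.13 and 0.20.

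Within the class, the 19 genes mutated in human Diamond-Blackfan anaemia had 14 log2 fold changes above 0 and 5 below, with a median of 0.04. Rpl11, which binds MDM2 with Rpl5 and 5S RNA, had 388, 601 and 570 CPM in TG, against 510, 537 and 672 CPM in WT (-0.14, SE 0.17), with TG replicate 1 the lowest and WT replicate 3 the highest. Of 7 genes listed for proteins that bind MDM2, a list that need not be complete, 0 were called and the median was 0.05. Rpl5, Rpl11, Rpl23 and Rps27a were among them. The 80 genes lie on 19 chromosomes, with 14 on chromosome 7.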

How the data were processed

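Whole-ovary RNA of 3 TG and 3 WT samples was sequenced on a BGISEQ-500, per the labels' protocols. RSEM 1.3.1, Bowtie2, the build mm10 and DESeq2 1.4.5 are named, without roles, per the submitters' processing notes; the annotation and strandedness are not given in the sources used here. The authors deposited estimated counts per gene, per the file headers, and a second set of columns that the values identify as FPKM. Between 8.50% and 9.12% of the deposited counts per library are not whole.

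Genes were matched by Entrez number to RefSeq GRCm38.p6 (18165 of 18280), and 26 altered symbols were restored. Estimated counts were rounded and tested with edgeR 4.0.16 (R 4.3.3), using TMM factors from 0.990 to 1.015, filterByExpr with a minimum count of 10 and total of 15, quasi-likelihood fit over 14124 genes with no covariate, Benjamini-Hochberg adjustment, threshold 0.05, and a common biological coefficient of variation of 12.5%. Log2 fold changes are TG over WT, and intervals are 95%. CPM uses effective library sizes. Shares used scipy 1.17.1. Coding length and GC came from GENCODE M21, and start windows from RefSeq. In simulated data for this comparison (14124 genes, 10 draws) 43.7% of 1.5-fold and 79.4% of 2-fold changes were recovered, and 7.95% of the calls were false. Intervals and floors for counts cover counting error only, since reads carry no molecular identifiers. Antisense or overlapping genes could not be separated.

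The members and lists were chosen with earlier results of these data known. Named genes follow a rule: fixed members with known roles, the 5 highest and 5 lowest per length, the 6 smallest p, the 3 largest changes in each direction, and up to 2 genes with the smallest p of each list on ribosome function; cell markers and interferon genes are given as counts and sums. The alternatives were RLE, upper-quartile and no factors, a replicate block, no filter or 50 counts in 3 samples, single libraries or both doubted ones left out, DESeq2 1.42.0, limma-voom and limma-trend (limma 3.58.1) on log2(FPKM + 1) and log2(FPKM + 0.1), and, added after seeing the data, the copies summed. A few genes of the class and of the lists are not reported singly here, but they remain in the fits and counts.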

Additional observations from a re-analysis of the deposited data

How the results depend on the processing

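Across the 18 alternatives run, 0 ribosomal protein genes were called, while calls over all genes ran from 119 to 202, beside 149. The members' median log2 fold change was between -0.0275 and 0.0905 with single libraries left out, and the share difference between -0.0786 and 0.274 percentage points. The replicate numbers were not taken as pairs, since same-numbered libraries correlated at 0.319, 0.122 and 0.093; each library correlated best with its own number, a hint from the data only. With the replicate block 159 genes were called and 0 members, and Rpl36 and Rps14 had unadjusted p under 0.05, with a lowest adjusted p of 0.171. With single libraries left out, the edgeR unadjusted p was under 0.05 for Rpl37a (without TG replicate 1) and Rpl36 (without TG replicate 3). It was also under 0.05 for Rpl41 and Rps14 (without WT replicate 1) and Rpl36a (without WT replicate 3). The sign of Rplp2 changed with upper-quartile factors (0.00614) and with no factors (0.00315). On the 4 libraries other than TG replicate 2 and WT replicate 3, the sign changed for Rplp1 (-0.00441), Rplp2 (0.0457), Rps27a (-0.00271), Rpl3 (-0.0176), Rps26 (0.0891) and Rpl36 (0.0225); the cause was not tested. With single libraries left out, the ranges that crossed 0 were -0.073 to 0.0711 for Rplp1, -0.0478 to 0.0471 for Rplp2, -0.13 to 0.0396 for Rpsa, -0.00279 to 0.0472 for Rpl3, -0.269 to 0.145 for Rps26, -0.147 to 0.0189 for Rps27 and -0.328 to 0.00894 for Rpl41. The share without mitochondrially encoded genes in the denominator did not apply, since 0 such genes are in the table. Depth limits the 3 restricted paralogues, which had at most 8 counts in any library and were not tested.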
